A study of Mus musculus with 225 samples.

Results

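*Runx1*, *Runx2*, *Runx3*, *Cbfb*, *Sp7*, *Dlx5* and *Dlx6* encode regulators of skeletal development and were followed here in single cells of the mouse forelimb. These 7 genes were chosen by name. All 7 have a row among the 23165 genes of the raw count table, and 6 of them, all but *Sp7*, are among the 10948 genes of the normalized table, so *Sp7* is given in raw reads only. Cells came from forelimbs of *Hoxd11::GFP* heterozygous mouse embryos of mixed C57Bl6CBAF1 background at embryonic day 12.5, in which tau-GFP was knocked into *Hoxd11* and inactivates that allele, so cells of both groups carried 1 working copy. The groups are the autopod (future wrist and digits) and the zeugopod (future forearm), with no treatment and no other genotype. The brightest GFP-positive cells of pooled embryos were sorted, which keeps cells that had transcribed *Hoxd11*, and each was captured and copied into cDNA in its own chamber of a Fluidigm C1 chip. The labels give 225 cells in 3 sequencing runs, and the values below concern the 199 cells retained in the normalized table: 59 autopod cells of run NXT0072, 17 autopod and 65 zeugopod cells of run NXT0143, and 58 zeugopod cells of run NXT0142. No embryo is named for a cell. Each tissue therefore counts as 1 pooled sample whose cells do not replicate each other, and neither p-values nor standard errors were computed.

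Runx proteins are transcription factors that bind DNA through a Runt domain, and each of them pairs with the same partner, Cbfb, which does not bind DNA itself but raises the affinity of the complex. Runx2 is required for bone formation and for the maturation of cartilage cells, Runx3 shares in cartilage maturation, and Runx1 is best known from blood stem cells and is also present in early skeletal condensations. Sp7, also called osterix, acts after Runx2 in osteoblasts. Dlx5 and Dlx6 are homeodomain proteins of neighbouring genes, needed for the outgrowth and patterning of the limb and for skeletal differentiation, and Dlx5 is known as an activator of *Runx2* and *Sp7*. Sox9 directs cells into cartilage, and *Col1a1*, the gene of the main chain of type I collagen, is abundant in connective tissue and bone.

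Retained cells had between 186271 and 9437447 reads on genes, and the median number of genes with a read was 3684 in the autopod and 3995 in the zeugopod. The tissue labels were checked against markers, a cell counting as having a gene when it had at least 5 reads of it. *Hoxd13* was found in 65 autopod cells and in 1 zeugopod cell, and *Shox2* in 0 autopod and 73 zeugopod cells. *Myod1*, *Myog*, *Myf5*, *Cdh5*, *Emcn*, *Aif1*, *Krt5* and *Trp63*, markers of muscle, endothelium, macrophages and epithelium, were at 0 cells in both tissues. Other markers of those types were not absent: *Csf1r* was found in 3 autopod and 17 zeugopod cells, *Pax7* in 1 and 15, and *Epcam* in 2 and 9. The osteoblast marker *Ibsp* was at 0 cells, and *Alpl* was found in 2 autopod cells and 0 zeugopod cells. *Sox9* was found in 72 autopod and 79 zeugopod cells, and *Col1a1* in 49 and 120. Run and tissue overlap only in NXT0143, so values are given by run where the runs differ. Intervals are exact binomial (Clopper-Pearson) 95% intervals. These intervals, and the limits given beside a count of 0, cover only the counting error of sampling cells. They leave out variation between embryos and between runs, since each tissue is 1 pooled sample. The limit beside a count of 0 is the share that 3 cells would make, which is below the exact upper bound. Reads carry no molecular identifiers, so they do not count molecules. Shares are of all 76 autopod cells, or of all 58 + 65 zeugopod cells, unless a smaller set is named.

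*Cbfb* was the member found in the largest share of cells in both tissues, followed in the autopod by *Dlx5*, *Runx1*, then *Runx2* and *Dlx6* with equal counts, *Runx3* and *Sp7*, and in the zeugopod by *Runx1*, *Runx2*, *Runx3*, *Dlx5*, then *Dlx6* and *Sp7* with equal counts. Intervals of neighbours in this order overlapped except between *Cbfb* and *Runx1* in the zeugopod. Of the autopod cells, 23 (30.3%, 20.2 to 41.9%) had at least 1 of the 3 *Runx* genes, as did 32 of the zeugopod cells (26%, 18.5 to 34.7%). At 5 reads, each of the 7 genes was thus silent or below detection in most cells of both tissues, with the exception of *Cbfb* in the autopod, and cells that did hold a gene held very different amounts of it.

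**Figure D1:**
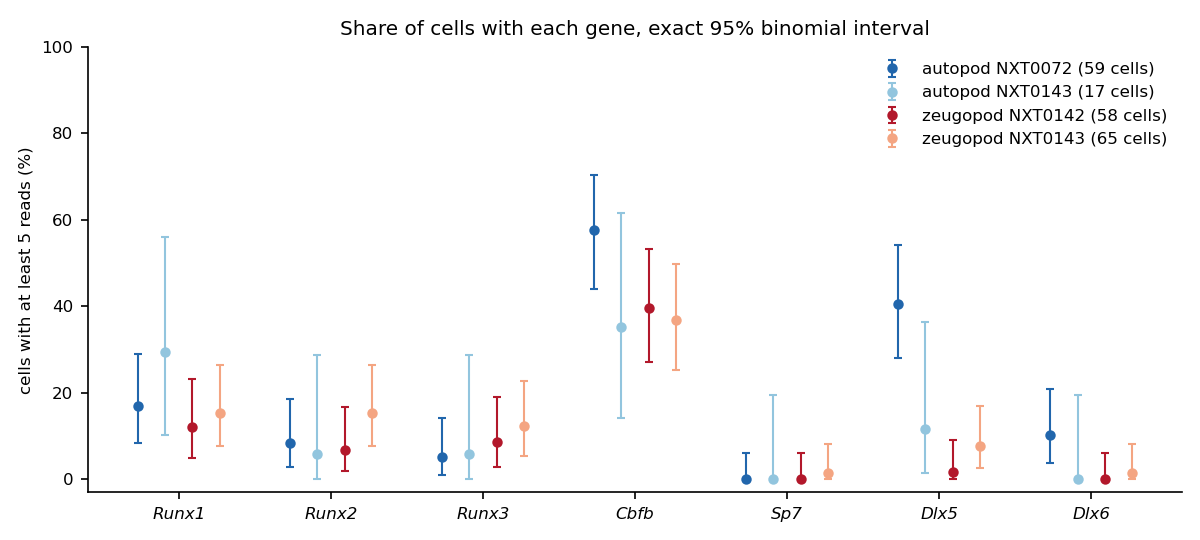
Percent of cells with at least 5 reads of each gene (vertical axis) in the 4 sets of cells of 1 tissue and 1 run (colours, cell numbers in the legend); points are shares and bars are exact 95% binomial intervals. *Cbfb* and *Dlx5* are highest in the 59 autopod cells of NXT0072, at 57.6% and 40.7%, and the 17 autopod cells of NXT0143 lie at 35.3% and 11.8%.

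*Runx1* (chr16:92601466-92826149, minus strand, GRCm38) was found in 15 autopod cells (19.7%, 11.5 to 30.5%) and in 17 zeugopod cells (13.8%, 8.26 to 21.2%). By run, the share was 16.9% in NXT0072 and 29.4% in NXT0143 for the autopod, and 12.1% in NXT0142 and 15.4% in NXT0143 for the zeugopod, with overlapping intervals. Among the autopod cells with *Runx1*, reads ran from 7 to 4043 with a median of 352, and among the zeugopod cells from 8 to 5599 with a median of 232. A few cells carried most of the message: 2 cells held 50.5% of all *Runx1* reads of the autopod and 68.2% of those of the zeugopod. The cells with more than 1000 *Runx1* reads were A_40, A_8, A_22 and A_80 in the autopod and Z_104, Z_25, Z_21 and Z_1 in the zeugopod, and *Sox9* was present in each of them, at 1598 reads in Z_21 as the lowest and 11590 in A_80 as the highest. *Runx2* and *Runx3* were found in only 1 of these 8 cells, Z_1.

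*Runx2* (chr17:44495987-44814797, minus strand) was found in 6 autopod cells (7.89%, 2.95 to 16.4%) and in 14 zeugopod cells (11.4%, 6.36 to 18.4%). In the autopod the 6 cells held 6356 reads (A_86), 5612 (A_14), 2832 (A_55) and, in A_88, A_43 and A_46, between 31 and about 100, so 3 cells were far above the other 3. In the zeugopod the 14 cells ran from 9 to 2405 reads with a median of 616, and 10 of them belonged to NXT0143 (15.4% of its cells) against 4 to NXT0142 (6.90%), with overlapping intervals. The normalized value, which is spike-in-scaled reads per kb of gene length, had a median of 384 over the 6 autopod cells and of 74.4 over the 14 zeugopod cells, and the ranges, 4.20 to 1400.05 and 1.56 to 352, overlapped.

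*Runx3* (chr4:135120652-135177990, plus strand) was the rarest *Runx* gene of the autopod, with 4 of 76 cells (5.26%, 1.45 to 12.9%), and was found in 13 zeugopod cells (10.6%, 5.75 to 17.4%). The 4 autopod cells held 908 reads (A_30), 763 (A_16), 173 (A_53) and 30 (A_87). The 13 zeugopod cells ran from 6 to 1114 reads with a median of 56, and 8 of them belonged to NXT0143 and 5 to NXT0142. The median normalized value was 142 in the autopod cells with the gene and 9.18 in the zeugopod cells with it, and the range of the autopod, 5.78 to 676, overlapped that of the zeugopod, 1.40 to 266. When each cell was thinned to 500000 reads and 5 reads were still required, 6 zeugopod cells (5.04%) and 4 autopod cells (5.56%) had *Runx3*, so the zeugopod count fell with depth and the autopod count did not. The zeugopod share was above that of the autopod before thinning and below it after.

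The promoters of *Runx2* and *Runx3* are shown because these genes were found together in cells of the zeugopod, as described further on. RefSeq promoter windows, the 250 bases before a gene's start in GRCm38.p6, were matched by symbol for 4 of the 7 members, *Runx1*, *Runx2*, *Runx3* and *Cbfb*, with 6 windows in all, and both strands were searched for the Runx motifs TGTGGT and TGCGGT and for the homeodomain motif TAATTA. The search found TGTGGT in the *Runx2* window, chr17:44814628-44814877, where it spans bases 80 to 75 before the start, and at 2 places of the window of the upstream *Runx3* start, chr4:135120395-135120644. The first of these begins 134 bases before the start, and 2 bases separate them, as the printed line shows. In all 3 places the motif lies on the strand opposite to the gene and is read as ACCACA in gene direction. Of 32851 promoter windows, 14% hold TGTGGT, 5.10% hold TGCGGT, 18.6% hold either of them and 4.84% hold TAATTA. The other 4 windows, including that of the downstream *Runx3* start, hold neither Runx motif, and none of the 6 holds TAATTA. A match describes letters only and is not shown to be bound. For *Runx2*, 30 bases around the motif are given (chr17:44814690-44814719, minus strand), since 170 bases of its window lie inside a transcript of the GENCODE annotation, and for *Runx3* the whole window (plus strand). Capitals mark the motif in both lines, read 5′ to 3′.
Runx2: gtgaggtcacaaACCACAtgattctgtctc
Runx3: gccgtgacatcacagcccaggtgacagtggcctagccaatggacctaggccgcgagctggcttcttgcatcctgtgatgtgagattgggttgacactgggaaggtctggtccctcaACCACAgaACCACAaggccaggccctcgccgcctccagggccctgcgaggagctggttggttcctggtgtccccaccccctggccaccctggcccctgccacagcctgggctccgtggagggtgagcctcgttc

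*Cbfb* (chr8:105170674-105217989, plus strand), the shared partner of the Runx proteins, was found in 40 autopod cells (52.6%, 40.8 to 64.2%) and in 47 zeugopod cells (38.2%, 29.6 to 47.4%). Reads ran from 5 to 6265 with a median of 262.5 in the 40 autopod cells, and from 5 to 4085 with a median of 233 in the 47 zeugopod cells. The autopod share came to 57.6% in NXT0072 and to 35.3% in NXT0143, next to 39.7% and 36.9% in the zeugopod runs NXT0142 and NXT0143. Within NXT0143, the run that holds both tissues, the autopod share was thus below that of the zeugopod by less than their intervals. Set against its partners, *Cbfb* was found in 10 of 23 autopod cells with a *Runx* gene (43.5%, 23.2 to 65.5%) and in 30 of 53 without (56.6%, 42.3 to 70.2%), and in 12 of 32 zeugopod cells with a *Runx* gene (37.5%, 21.1 to 56.3%) and in 35 of 91 without (38.5%, 28.4 to 49.2%). These intervals overlapped in both tissues, and a difference was not tested. Taken singly, the *Runx* genes went apart. *Cbfb* was found in 33.3% of autopod cells with *Runx1* against 57.4% without, and in 29.4% against 39.6% in the zeugopod. For *Runx2* the shares were 83.3% against 50% and 57.1% against 35.8%, and for *Runx3* 25% against 54.2% and 38.5% against 38.2%. All these intervals overlapped as well.

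*Dlx5* (chr6:6877805-6882085, minus strand) was found in 26 autopod cells (34.2%, 23.7 to 46%) and in 6 zeugopod cells (4.88%, 1.81 to 10.3%). The 26 autopod cells ran from 5 to 8860 reads with a median of 88.5, and 2 of them, A_68 with 8860 and A_61 with 6740, held 62.6% of the reads. The 6 zeugopod cells held 3533 reads (Z_51), 500 (Z_67), 50 (Z_100), 23 (Z_34), 14 (Z_46) and 6 (Z_15), so 2 cells of NXT0143 stood above the rest. The autopod cells with the gene were unevenly spread over the runs, with 24 of 59 in NXT0072 (40.7%, 28.1 to 54.3%) and 2 of 17 in NXT0143 (11.8%, 1.46 to 36.4%). In the zeugopod they were 1 of 58 in NXT0142 (1.72%) and 5 of 65 in NXT0143 (7.69%, 2.54 to 17%), so within NXT0143 the tissues overlapped. After thinning to 500000 reads, with 5 reads required, *Dlx5* was found in 16 autopod cells (22.2%) and in 3 zeugopod cells (2.52%). With the same thinning the shares were 44.4% in the autopod and 29.4% in the zeugopod for *Cbfb*, 18.1% and 10.1% for *Runx1*, and 6.94% and 10.1% for *Runx2*, so the order of the tissues was kept for each of these genes. It was not kept for *Runx3*, at 5.56% in the autopod and 5.04% in the zeugopod after thinning.

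*Dlx6* (chr6:6863334-6868568, plus strand), whose gene ends 9236 bases from that of *Dlx5*, was found in 6 autopod cells (7.89%, 2.95 to 16.4%), all of them in NXT0072, and in 1 zeugopod cell (0.813%, 0.0206 to 4.45%). The autopod cells held 319 reads (A_46), 185 (A_58), 100 (A_91), 31 (A_41), 31 (A_69) and 10 (A_79), and the zeugopod cell, Z_67, held 7. The 17 autopod cells of NXT0143 held no cell with 5 reads, which leaves room for a share of 17.6%, or of 19.5% by the exact interval. *Dlx6* lies wholly within the antisense gene *Dlx6os1*, and the library kit does not mark strand, so reads of the pair cannot be told apart by their direction. *Dlx6os1* was itself listed with at least 5 reads in 2 autopod cells, A_68 with 1099 and A_36 with 41, and both of these had *Dlx5* and 0 reads of *Dlx6*.

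*Sp7* (chr15:102356606-102367182, minus strand) was confined, at 5 reads, to 1 cell among the 199, the zeugopod cell Z_51 of NXT0143 with 1942 reads. No autopod cell had it, a count of 0 that leaves room for a share of 3.95%, or of 4.74% by the exact interval. The autopod cell A_59 and the zeugopod cell Z_67 were listed with 1 read each. Z_51 also held 1968 reads of *Runx2*, 437 of *Runx3*, 3533 of *Dlx5*, 3065 of *Sox9* and 374 of *Col1a1*, with 3 of *Runx1* and 0 of *Cbfb* and *Dlx6*. Among the 65 zeugopod cells of its run it had rank 1 for *Sp7* and *Dlx5* in reads per 1000000 reads on genes (CPM), rank 2 for *Runx2*, rank 3 for *Runx3* and rank 48 for *Col1a1*. Z_51 had 5565 genes with a read, near the maximum of 5598 in these cells, where the median of the others was 3740. Whether it was a capture of more than 1 cell was not tested. Other genes of bone and mature cartilage in this cell were at 0 reads for *Ibsp*, *Spp1* and *Alpl*, at 9 reads for *Col10a1* of hypertrophic cartilage, and at 5697 reads for *Mef2c*, a regulator of cartilage hypertrophy, for which it had rank 3.

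**Figure D2:**
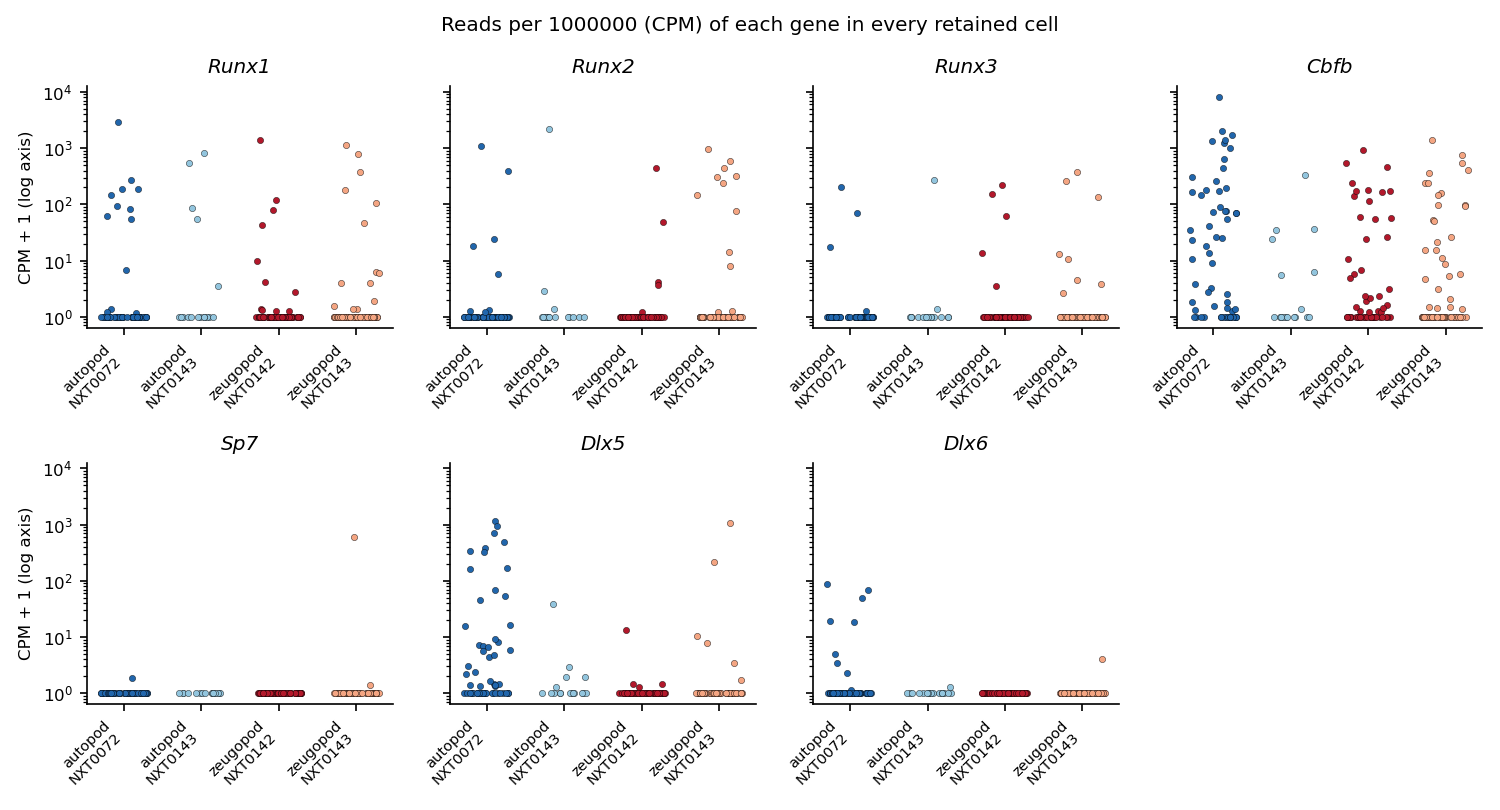
Each point is 1 retained cell, and the log axis gives CPM + 1 for the 7 genes in the 4 sets of cells of 1 tissue and 1 run. Cells at 1 have 0 reads, and the cells with a gene spread over several orders of magnitude, up to 8124 CPM for *Cbfb* in an autopod cell; *Sp7* has 1 high point, at 590.05 CPM.

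The difference between tissues was taken between means of log2(normalized value + 1), autopod minus zeugopod, and a gene was called when it differed by at least 1 with the same direction in both run comparisons, NXT0072 autopod against NXT0142 zeugopod and NXT0143 alone. Of the 7 members, *Cbfb* and *Dlx5* reached the filter of 5 reads in 25% of the cells of either tissue. *Cbfb* reached it in both tissues. *Dlx5* reached it through the autopod alone, at 34.2% of cells against 4.88% in the zeugopod, so for *Dlx5* the filter itself favoured a call in that direction. *Dlx5* was the only member called, higher in the autopod, where 5.25% of the 4898 genes tested were called, and 0 members were called higher in the zeugopod, where 9% of the genes were. The *Dlx5* mean was 2.92 for the autopod against 1.05 for the zeugopod. The difference, 1.87, was 1.99 above the median of all genes tested, which was -0.12. It was 2.48 between NXT0072 and NXT0142, where the median of all genes tested was -0.34. Within NXT0143 it was 0.17 and the median of all genes was 0.18, so that *Dlx5* did not stand above the other genes there and the call rests on the runs that hold 1 tissue each, in which tissue and run cannot be told apart. On the log2(CPM + 1) scale the *Dlx5* difference was 1.64, or 1.93 above a median of -0.29, and on that scale 22.8% of the calls were higher in the autopod, against 36.8% on the normalized scale.

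*Cbfb* had a mean of 3.73 in autopod cells and of 2.36 in zeugopod cells, and the difference of 1.37 was 1.77 between NXT0072 and NXT0142 and -0.19 within NXT0143. It changed direction between the runs and was not called. For the members below the filter the difference was 0.47 for *Runx1*, 0.41 for *Dlx6*, -0.05 for *Runx2* and -0.11 for *Runx3*. Within NXT0143 these differences came to 0.78, -0.03, -0.27 and 0.10, and between NXT0072 and NXT0142 to 0.43, 0.55, 0.25 and -0.16. *Runx2*, *Runx3*, *Cbfb* and *Dlx6* thus had opposite signs in the run comparisons, and *Runx1* was above the median of all genes in both. A gene with 0 reads is not at 0 on this scale but at a value set by its length, 0.77 for *Dlx5* and 0.12 for *Runx1*, so that means of different genes are not compared here. *Sox9*, with a difference of 3.14, and *Col1a1*, with -4.39, kept their direction in both run comparisons.

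**Figure D3:**
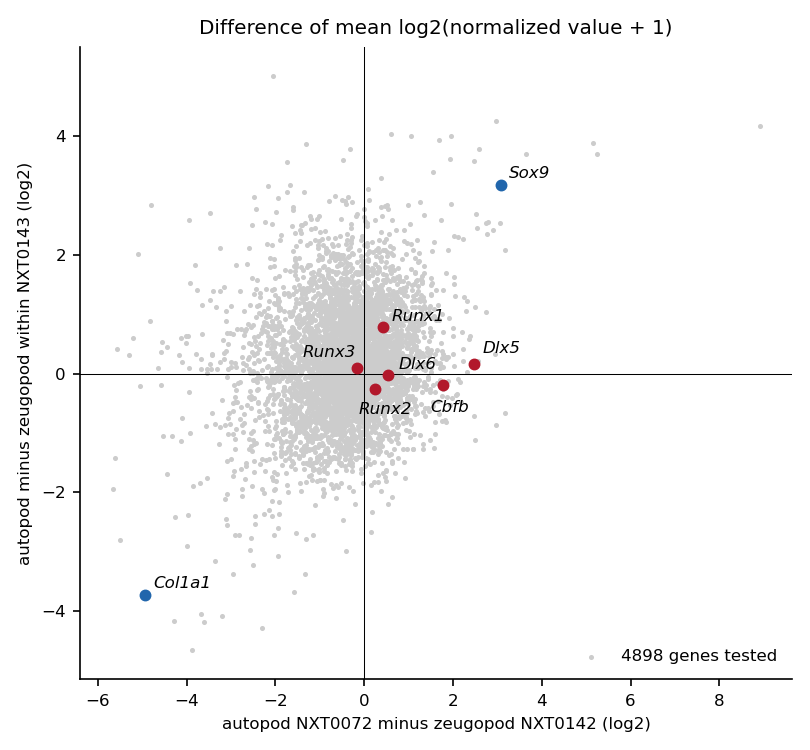
Difference of mean log2(normalized value + 1), autopod minus zeugopod, between NXT0072 and NXT0142 (horizontal) and within NXT0143 (vertical), for the 4898 genes tested (grey), 6 members (red, of which *Cbfb* and *Dlx5* passed the filter on low counts) and *Sox9* and *Col1a1* (blue). *Dlx5* and *Cbfb* lie far to the right, at 2.48 and 1.77, and close to 0 on the vertical axis, at 0.17 and -0.19.

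The relation to *Sox9* was described in the zeugopod, where 79 cells had *Sox9* and 44 did not, since only 4 autopod cells lacked it. All 3 *Runx* genes were found in a larger share of the cells with *Sox9*: *Runx1* in 13 of 79 (16.5%, 9.06 to 26.5%) against 4 of 44 (9.09%, 2.53 to 21.7%), *Runx2* in 11 of 79 (13.9%, 7.16 to 23.5%) against 3 of 44 (6.82%, 1.43 to 18.7%), and *Runx3* in 11 of 79 (13.9%, 7.16 to 23.5%) against 2 of 44 (4.55%, 0.555 to 15.5%). At 5 reads the direction was the same in NXT0142 and in NXT0143 for each of the 3, with *Runx3* at 4 of 36 against 1 of 22 in the former and at 7 of 43 against 1 of 22 in the latter. The intervals overlapped for each gene, so counting error alone could span these differences. With 10 reads required, *Runx2* in NXT0142 went the other way, at 1 of 35 cells with *Sox9* against 2 of 23 without. *Runx3* was there at 3 of 35 against 2 of 23 (8.57% and 8.70%), while *Runx1* kept its direction. Over all zeugopod cells the 3 genes kept it at this setting. The NXT0142 cell Z_93, which had *Runx2* and *Runx3*, held 8 reads of *Sox9* and so changed sides. With 1 read required, the direction did not hold throughout: *Runx2* in NXT0142 was found in 7.32% of the cells with *Sox9* and in 11.8% of those without, *Runx1* in NXT0143 in 19.1% and 27.8%, and *Runx1* over all zeugopod cells in 20.5% and 20%. After thinning with 5 reads required, the shares with and without *Sox9* were 12.3% and 6.52% for *Runx1*, 11% and 8.70% for *Runx2* and 6.85% and 2.17% for *Runx3*.

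All 6 zeugopod cells with *Dlx5*, the cell with *Dlx6* and the cell with *Sp7* had *Sox9*. *Dlx5* was at 0 of 44 cells without *Sox9*, where a share of 6.82% could have been missed, next to 6 of 79 with it (7.59%, 2.84 to 15.8%). The exact upper bound for 0 of 44 lies above 7.59%, so the exact intervals overlapped here too. *Cbfb* leaned the other way, with 29 of 79 cells (36.7%, 26.1 to 48.3%) against 18 of 44 (40.9%, 26.3 to 56.8%), and its mean log2 level was 2.07 in cells with *Sox9* and 2.87 in cells without. This difference, -0.80, was below the size needed for a call. *Cbfb* was the only member past the filter in this split, and 0 members were called, where 3.65% of 4303 genes were called higher with *Sox9* and 8.78% lower. Median reads were 3137267 in cells with *Sox9* and 3425053.5 in those without, and the medians of genes with a read were 3919 and 4216.5, so by these medians the cells with *Sox9* were not the deeper ones.

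The relation to *Col1a1* was described in the autopod, where 49 cells had *Col1a1* and 27 did not, since only 3 zeugopod cells lacked it. *Dlx5* was found in 21 of the 49 (42.9%, 28.8 to 57.8%) and in 5 of the 27 (18.5%, 6.30 to 38.1%), and its mean log2 level was 3.61 against 1.66. With this difference of 1.94 it was called higher with *Col1a1*, where 38.4% of 4031 genes were called higher and 1.34% lower, and where the median difference of all genes was 0.78. The cells with *Col1a1* had more reads, with a median of 3082311 against 2524267, and more genes with a read, with a median of 3763 against 3243. Once cells were thinned to 500000 reads, *Dlx5* was found in 7 of 32 cells with *Col1a1* (21.9%) and in 9 of 40 without (22.5%), with 5 reads required of both genes, and with 1 read required the shares were 36.7% and 30.4%. Thinning left out 4 autopod cells and also redrew the split, from 49 and 27 cells with and without *Col1a1* to 32 and 40. The part of depth in the *Dlx5* difference was not tested.

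*Runx1* was found in 11 of 49 autopod cells with *Col1a1* (22.4%, 11.8 to 36.6%) and in 4 of 27 without (14.8%, 4.19 to 33.7%). The runs went apart, with 9 of 39 against 1 of 20 in NXT0072 and 2 of 10 against 3 of 7 in NXT0143. *Cbfb* was found in 28 of 49 (57.1%, 42.2 to 71.2%) against 12 of 27 (44.4%, 25.5 to 64.7%), and after thinning in 14 of 32 against 18 of 40, that is 43.8% and 45%. The counts of *Runx2*, *Runx3* and *Dlx6* were 3 of 49 for each with *Col1a1*, against 3, 1 and 3 of 27 without it. None of these shares differed beyond its interval.

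**Figure D4:**
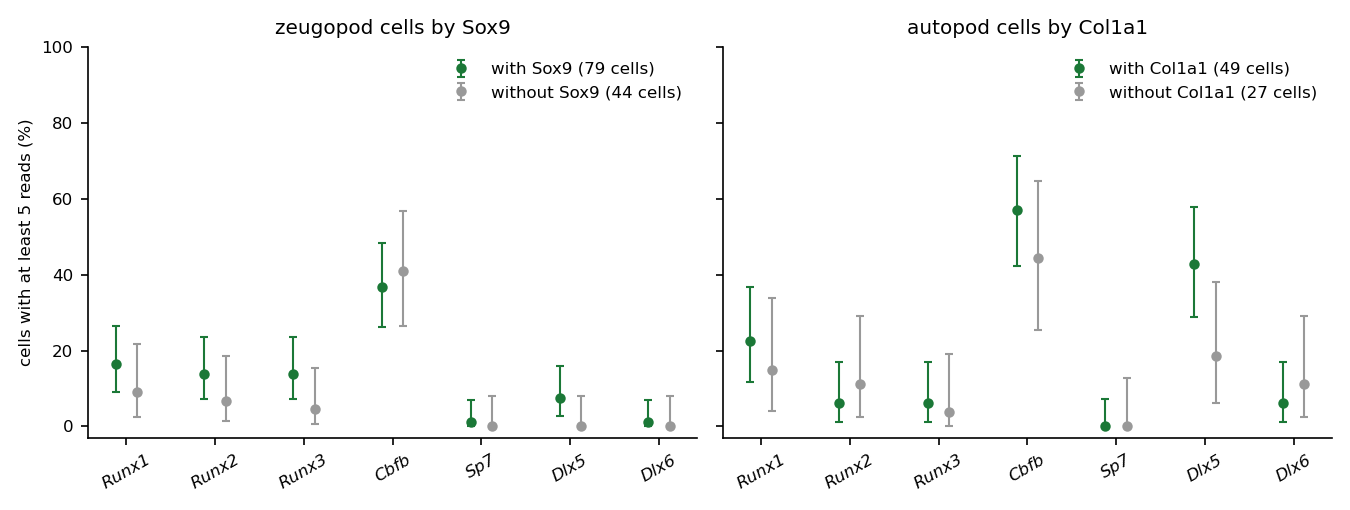
Percent of cells with at least 5 reads of each gene, with exact 95% binomial intervals, in zeugopod cells with and without *Sox9* (left) and in autopod cells with and without *Col1a1* (right). Shares with *Sox9* are higher for the 3 *Runx* genes, with overlapping intervals, and the widest gap, *Dlx5* by *Col1a1* at 42.9% against 18.5%, is in cells that differ in depth.

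Across cells of 1 tissue and run, Spearman coefficients of a member with *Sox9* or *Col1a1* were computed. Over the 30 coefficients for which a member had at least 5 cells with the gene, they ran from -0.33 to 0.52 with a median of 0.03, and the values farthest from 0, 0.52 for *Cbfb* with *Col1a1* and 0.47 for *Runx1* with *Sox9*, came from the 17 autopod cells of NXT0143. On the CPM scale they ran from -0.69 to 0.60. The lowest, *Cbfb* with *Sox9* in the same 17 cells, of which 6 had *Cbfb*, was -0.69 in CPM, -0.68 in the 16 cells that could be thinned and -0.26 on the normalized scale. The cells behind each coefficient share a tissue, a sequencing run and its spread of depth. In the 65 zeugopod cells of NXT0143, the coefficient with *Sox9* was 0.28 for *Runx2*, 0.31 for *Runx3* and 0.35 for *Dlx5*, and in the 58 zeugopod cells of NXT0142 it was 0.05, 0.09 and 0.06, with only 4, 5 and 1 cells holding the gene. In counts as sparse as these, no relation is read from such values.

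*Runx2* and *Runx3* were found together in cells of the zeugopod. Of the 13 zeugopod cells with *Runx3*, 8 had *Runx2* (61.5%, 31.6 to 86.1%), against 6 of 110 cells without *Runx3* (5.45%, 2.03 to 11.5%). The share was higher in cells with *Runx3* in both runs, with 2 of 5 against 2 of 53 in NXT0142 and 6 of 8 against 4 of 57 in NXT0143. The 8 cells were Z_93, Z_16, Z_51, Z_116, Z_67, Z_61, Z_1 and Z_17, with 171 to 2405 reads of *Runx2*. Their reads of *Runx3* per 100 reads of *Runx2* ranged from 0.710 in Z_17 to 48.8 in Z_93, so the pair did not keep 1 ratio. With thinning and 5 reads required, 3 of 6 cells with *Runx3* had *Runx2* (50%, 11.8 to 88.2%), against 7.96% of cells without (3.71 to 14.6%), and these intervals overlapped. The intervals also overlapped in NXT0142 alone, and did not overlap in NXT0143 alone, at 1 or 10 reads, at a normalized value of 5 or after thinning with 1 read, where the share of *Runx2* in cells with *Runx3* ran from 58.3% to 75%.

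To place this gap among other genes, the share of zeugopod cells with a gene was compared between cells with and without *Runx3* for the other 10947 genes of the normalized table, a description added after the pair had been seen. A gene was counted when its share was higher by at least 25 percentage points, and 7.18% of the genes were. *Runx2* was the only member counted, at 56.1 points, rank 3 of 10947, where the median over all genes was 3.99 points. Median reads on genes were 3533865 in the zeugopod cells with *Runx3* and 3129508 in those without, and genes with a read 4454 and 3949.5.

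In the autopod the pair was not found together. The 4 autopod cells with *Runx3* had 0 cells with *Runx2*, and the 6 with *Runx2* had 0 with *Runx3*, an interval of up to 60.2% and 45.9%. The 3 autopod cells with over 1000 *Runx2* reads, A_86, A_14 and A_55, had 0 reads of *Runx3*, whereas 3 of the 4 such zeugopod cells, Z_16, Z_93 and Z_51, had 437 to 1114. The genes share the Runt domain, and reads were placed by unique mapping in local mode. How many reads of the one could be counted for the other was not tested. Z_77 and Z_14 had 782 and 671 reads of *Runx3* and 0 of *Runx2*. Captures of more than 1 cell were not looked for, and their part in genes found together was not tested.

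**Figure D5:**
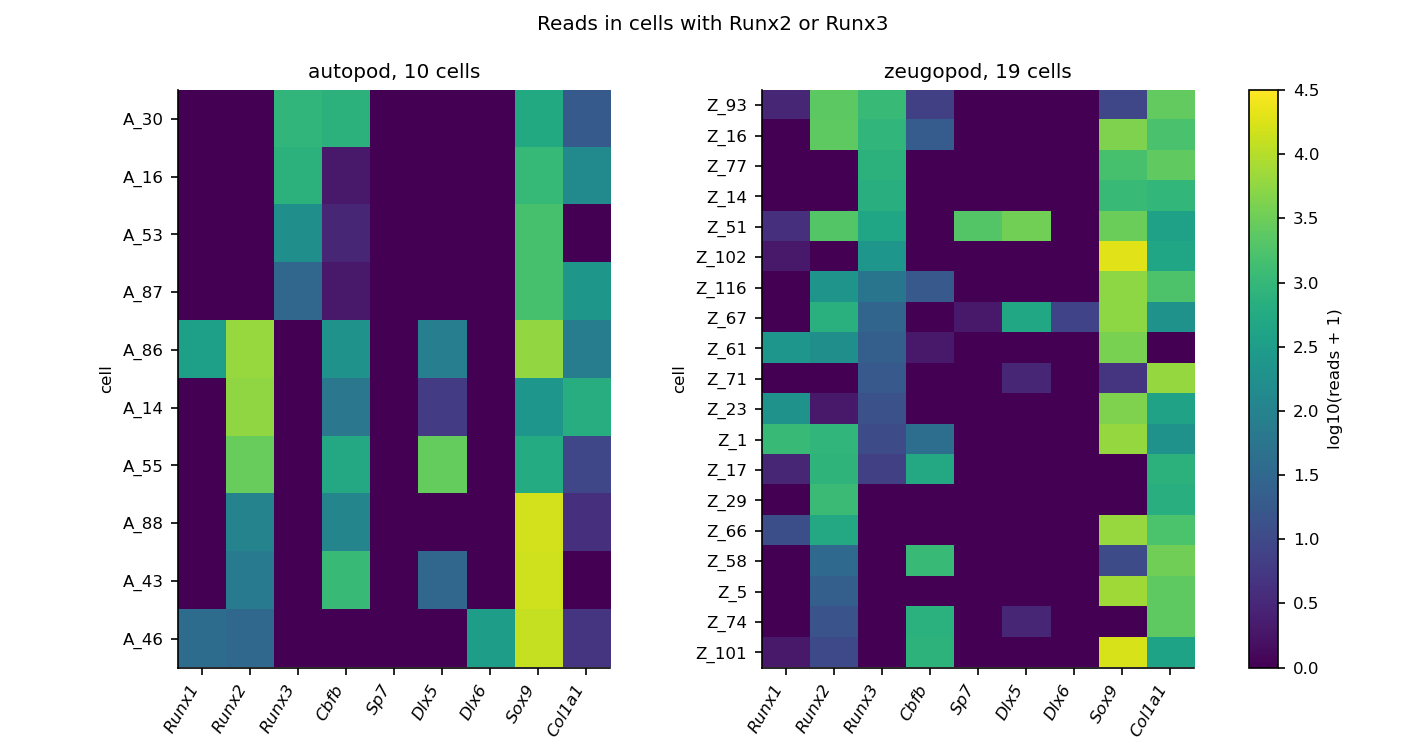
Reads, as log10(reads + 1), of the 7 genes, *Sox9* and *Col1a1* (columns) in the cells with at least 5 reads of *Runx2* or *Runx3* (rows), 10 in the autopod (left) and 19 in the zeugopod (right), ordered by *Runx3* and then *Runx2*. The autopod falls into 4 cells with *Runx3* and 6 with *Runx2*, while 8 of the zeugopod cells hold both, and Z_51 is the cell with *Sp7*.

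Other pairs were looked at in the same way. In the autopod, *Cbfb* was found in 20 of 26 cells with *Dlx5* (76.9%, 56.4 to 91%) and in 20 of 50 without (40%, 26.4 to 54.8%). In NXT0072 this was 19 of 24 against 15 of 35, and in NXT0143 1 of 2 against 5 of 15, and after thinning with 5 reads required it was 10 of 16 against 22 of 56, that is 62.5% and 39.3%. Over the 10947 other genes of the normalized table, a description added after this pair was seen, 3.14% had a share at least 25 percentage points higher in the cells with *Dlx5*. *Cbfb*, 36.9 points higher, ranked 47 among them, and the median gene was 3.69 points higher. Cells with *Dlx5* were deeper, with a median of 3685928 reads on genes against 2705633.5 and of 4093.5 genes with a read against 3434.5, and the part of depth was not tested. *Runx2* was found in 5 autopod cells with *Cbfb* and in 1 without, and 4 of the 6 autopod cells with *Runx2* had *Dlx5*. The neighbours *Dlx5* and *Dlx6* were found together in 2 autopod cells, A_41 and A_69, of the 6 with *Dlx6* (33.3%, 4.33 to 77.7%), next to 24 of the 70 without *Dlx6* (34.3%). The 70 cells mix the runs. In NXT0072, which held all 6 cells with *Dlx6*, *Dlx5* was in 2 of 6 against 22 of 53 (41.5%). At a normalized value of 5 over both runs the shares were 50% and 32.9%. With at least 1 read, 8 of 10 cells with *Dlx6* had *Dlx5*, against 30 of 66. In the zeugopod, the only cell with *Dlx6*, Z_67, also had *Dlx5*, *Runx2* and *Runx3*.

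No cell held more than 4 of the 7 members. In the autopod 19 of 76 cells had none, 29 had 1, 17 had 2, 10 had 3 and 1 had 4. In the zeugopod 54 had none, 50 had 1, 11 had 2, 5 had 3 and 3 had 4. The median of genes with a read was 3105 in autopod cells with none of the members and 4175 in those with 3.

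For members found in at least 10% of the cells of a tissue, the genes most like them were taken as those with the highest mean, over the runs of that tissue, of the Spearman coefficient across cells. For *Runx2* in the zeugopod these were *Rfc5* (0.41), *Ndc1* (0.40) and *Cep192* (0.38), over all zeugopod cells and with a median of 0.08 over 4304 genes, and for *Runx3* they were *Pank4* (0.38), *Meaf6* (0.38) and *Nup88* (0.38), with a median of 0.07. For *Runx1* they were *Ahsa1*, *Dhrs3* and *Ybx1* in the zeugopod (0.30 to 0.37) and *Timm17b*, *Ndufs8* and *Supt20* in the autopod (0.44 to 0.46), and for *Dlx5* in the autopod *Cyc1*, *Cnot2* and *Prim1* (0.56 to 0.58). For *Cbfb* they were *Atf7ip*, *Vdac3* and *Ddx1* in the autopod (0.57 to 0.62). Candidates had to pass the filter on low counts within the tissue concerned. Among the members only *Cbfb* passed it in the zeugopod, and only *Cbfb* and *Dlx5* in the autopod. The other members could not be listed, so their absence says nothing about how alike they are. *Cbfb* and *Dlx5*, where they were candidates, and *Sox9* and *Col1a1* were not among the genes listed. The autopod values lean on the 17 cells of NXT0143: *Cyc1* had 0.84 with *Dlx5* there and 0.32 in NXT0072.

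Genes that act with or after the members were read from fixed lists. Of 12 osteoblast genes, 10 were in the count table and 4 passed the filter, of which *Col1a1* and *Col1a2*, the genes of type I collagen, were called higher in the zeugopod, with differences of -4.39 and -2.58, and *Atf4*, a partner of Runx2 in osteoblasts, higher in the autopod by 1.16. *Sparc*, a bone and connective tissue matrix gene, differed by -2.31 without being called. Later bone genes were rare: *Ibsp* had 0 cells in both tissues and *Spp1* had 0 autopod and 2 zeugopod cells. Of 5 hypertrophic cartilage genes only *Mef2c* passed the filter, with 27 autopod and 15 zeugopod cells, and was called higher in the autopod by 1.17. It passed through the autopod alone, at 35.5% of cells against 12.2%, so the filter favoured this call. *Col10a1*, a known target of Runx2, was found in 5 autopod and 11 zeugopod cells, *Ihh* in 1 and 2, and *Mmp13* in 0 and 0.

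Among 7 chondrogenic genes, 5 passed the filter and 2 were called, *Sox9* and *Col9a1*, both higher in the autopod, by 3.14 and 2.29. *Col2a1*, the gene of type II collagen, differed the other way, by -1.54, without being called. *Acan*, below the filter, differed by -0.30, and *Matn1* was found in 0 autopod and 4 zeugopod cells. Of 13 partners and modulators of Runx proteins, 11 passed the filter, with a median difference of 0.25. *Twist1*, which restrains Runx2, was called higher in the autopod, with 43 autopod and 21 zeugopod cells and a difference of 2.44, and *Stub1*, a ubiquitin ligase that acts on Runx proteins, higher in the zeugopod, with a difference of -2.08. The filter favoured both calls. *Twist1* passed it through the autopod alone, at 56.6% of cells against 17.1%. *Stub1* passed it through the zeugopod alone, at 48% of cells against 19.7% in the autopod. The corepressors *Tle1*, *Tle3* and *Tle4*, and *Hdac4* and *Yap1*, were in 28 to 35 autopod cells and 44 to 67 zeugopod cells and were not called. Of 10 BMP pathway genes, 7 passed and 5 were called, all higher in the autopod: *Msx1* (4.95), *Id2* (4.42), *Id1* (3.83), *Msx2* (2.97) and *Id3* (2.40). Of all genes tested, 5.25% were called higher in the autopod. *Msx1* and *Msx2* passed the filter through the autopod alone, at 60.5% and 46.1% of its cells against 1.63% of zeugopod cells for each. The filter itself thus favoured their call, while *Id1*, *Id2* and *Id3* passed it in both tissues. The called genes are ones that respond to BMP signalling. The ligands *Bmp2*, *Bmp4* and *Bmp7*, below the filter, differed by 0.81, -0.74 and 0.49. The receptors *Bmpr1a* and *Bmpr1b* differed by 0.72 and 0.82 without being called. Among the other *Dlx* genes, *Dlx3* was found in 4 autopod and 2 zeugopod cells, *Dlx2* in 0 and 1, and *Dlx1* and *Dlx4* in 0 and 0.

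Markers of other cell types were read in the cells with each member. *Runx1* is also a blood gene, and the blood marker *Ptprc* was found in 0 of the 15 autopod and 0 of the 17 zeugopod cells with *Runx1*, against 3 autopod and 3 zeugopod cells without it. The globin genes were not analysed here. Of 3 macrophage markers, at least 1 was found in 0 of 15 autopod and 4 of 17 zeugopod cells with *Runx1*, against 3 autopod and 14 zeugopod cells without it, with summed levels of 0 to 10.3 CPM in the 17, and *Aif1* was at 0 cells throughout. Endothelial markers were found in 1 of the 15 autopod and 0 of the 17 zeugopod cells. The summed level of the 5 chondrogenic markers had a median of 2932 CPM in the 17 zeugopod cells with *Runx1*, against 547 in the cells without. For *Runx2* these medians were 2175 CPM over 14 cells with the gene and 647 over those without, for *Runx3* 2044 over 13 cells and 647, for *Dlx5* 4350 over 6 cells and 647, and for *Cbfb* 374 over 47 cells and 1109. In the zeugopod *Runx1*, *Runx2*, *Runx3* and *Dlx5* thus lay with the higher chondrogenic level and *Cbfb* with the lower. This did not hold for each gene in the autopod, where the median was 727 CPM in the 4 cells with *Runx3* against 2315 without, and 1999 in the cells with *Dlx5* against 2273. The ranges overlapped for each of these genes in the zeugopod. The sets also share cells, so these genes do not count separately. In the zeugopod 8 cells held both *Runx2* and *Runx3*, and of these Z_51 and Z_67 also held *Dlx5*. The medians pool the runs. Of 6 epithelial markers, at least 1 was found in 2 of the 6 zeugopod and 2 of the 26 autopod cells with *Dlx5*, against 16 zeugopod and 0 autopod cells without it. Their summed level reached 988 and 1442 CPM in the zeugopod and autopod cells with *Dlx5*, and 1741 and 1.42 CPM in those without. Muscle markers were found in 5 of the 17 zeugopod cells with *Runx1* and in 10 without, with sums of up to 6.94 and 7.54 CPM, and macrophage markers in 10 of 47 zeugopod cells with *Cbfb* and 8 of 76 without. The part of other cell types in these results was not tested. Osteoblast markers other than *Sp7* were at 0 CPM in Z_51, and the tendon markers *Scx*, *Tnmd* and *Tnc* were also at 0 in it.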

How the data were processed

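Single cells of the autopod and zeugopod were sequenced as full-length cDNA without molecular identifiers. The authors mapped reads to mm10 with Bowtie2 in local mode, kept unique alignments and deposited raw counts per gene, with 92 rows of ERCC spike-ins that were left out here. They also deposited a normalized signal per gene and cell, made with scran from counts, spike-in size factors centred within each batch, and gene length. The paper does not say what a batch was. The deposited signal is linear; where a cell had 0 reads of a gene its value is 1 divided by the gene's length in kb. Of the 225 cells, 199 have such values. 

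A cell had a gene at 5 or more reads. CPM are reads per 1000000 reads on genes. Levels were compared as means of log2(normalized value + 1) over genes with 5 reads in 25% of the cells of either tissue. Shares have Clopper-Pearson 95% intervals, and a count of 0 allows the share that 3 cells would make. Cells were thinned to 500000 reads with seed 42, leaving out 8 of the 199 cells as too shallow. No doublet caller was run. Alternatives were 1 or 10 reads, a normalized value of 5, thinning, pseudocounts of 0.1 and 10, CPM, a difference of 2, no filter, and each run alone. Named genes were the 7 members with *Sox9* and *Col1a1*, the 3 genes most like each member by rank correlation, and the listed genes, by counts and with the largest differences. The genes most like *Cbfb* in the zeugopod are not reported here. The members and lists were chosen with earlier results of these data known, and cells listed by name were chosen after their values were seen. The calculation was tested on simulated data. Gene positions are from the GENCODE annotation of GRCm38. Python 3.11.15, numpy 2.4.6, pandas 2.3.3, scipy 1.17.1 and matplotlib 3.10.9 were used.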

Additional observations from a re-analysis of the deposited data

How the results depend on the processing

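With 1 pooled sample per tissue nothing below is a test, and small counts limit every share. No paired analysis was possible because the numbers shared by the groups only count cells and no test was made. A share was taken as unmoved inside its interval, and a difference when it moved by less than the SD of the 2 run comparisons. A count was unmoved within 1.5 times. By these rules 446 of 517 alternative values did not move, and the cause of the shifts was not tested. A reversal could be counted only for the level of a called member, here *Dlx5*. A call already asks for the same direction in both run comparisons, so the count of 0 reversals was nearly fixed beforehand. Changes of sign in members not called, such as *Cbfb* from 1.37 to -0.19 within NXT0143, were not counted as reversals. With at least 1 read, *Cbfb* was found in 65.8% of autopod and 48.8% of zeugopod cells and *Dlx5* in 50% of autopod cells. With at least 10 reads *Dlx6* was at 0% of zeugopod cells. With a normalized value of at least 5, *Runx1* was at 8.13% and *Cbfb* at 29.3% of zeugopod cells. After thinning with 5 reads, *Runx3* was at 5.04%, *Cbfb* at 29.4% and *Dlx6* at 0% of zeugopod cells and *Dlx5* at 22.2% of autopod cells. In NXT0143 alone, *Cbfb* was at 35.3%, *Dlx5* at 11.8% and *Dlx6* at 0% of autopod cells, and in NXT0142 alone *Sp7* was at 0%, *Dlx5* at 1.72% and *Dlx6* at 0% of zeugopod cells. The differences within NXT0143 were 0.78 for *Runx1*, 0.10 for *Runx3*, -0.19 for *Cbfb*, 0.17 for *Dlx5* and -0.033 for *Dlx6*. Against 257 genes called higher in the autopod, there were 38 at a difference of 2, 417 and 80 with pseudocounts of 0.1 and 10, and 900 in NXT0143 alone. Against 441 higher in the zeugopod, there were 91 at a difference of 2, 177 with a pseudocount of 10, 737 on the CPM scale and 1190 between NXT0072 and NXT0142. Members called higher in the autopod were 0 at a difference of 2, 0 with a pseudocount of 10, 0 in NXT0143 alone and 2, *Dlx5* and *Cbfb*, between NXT0072 and NXT0142.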

Other observations

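The 26 cells without normalized values held from 17 to 2926028 reads on genes. Of the 7 members, only *Runx3* reached 5 reads in any of them, with 7 reads in 1 of 26 cells (3.85%, exact interval 0.0973 to 19.6%), which is below the share of 11.5% that a count of 0 allows.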
